A study of Mus musculus with 16 samples.

Results

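A set of 9 transcription factors, grouped here for their roles in endocrine cell subtypes, Lmx1a, Fev, Pax4, Pax6, Isl1, St18, Hhex, Etv1 and Mnx1, was followed across 16 bulk RNA libraries of mouse small intestine. They were found by gene symbol, and 9 of 9 had a row among the 20072 genes of the deposited table. The libraries came from untreated Tph1-CFP mice of 8 to 16 weeks, a line in which cyan fluorescent protein (CFP) labels enterochromaffin (EC) cells, which are endocrine cells of the gut lining that make serotonin. All 4 groups carried this reporter: CFP-positive cells of the villus (villus EC), CFP-negative epithelial cells of the villus (villus epi), CFP-positive cells of the crypt (crypt EC) and CFP-negative epithelial cells of the crypt (crypt epi), with 4 libraries each and 5000 cells pooled per library. CFP-negative cells are all other epithelial types together, endocrine cells of other kinds included.

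Endocrine cells of the gut arise in the crypt from progenitors that briefly express the factor Neurog3, and later factors then steer them to one hormone or another. EC cells make serotonin through the enzyme Tph1, and in mice Lmx1a acts downstream of Nkx2-2 in that path, while Fev (also called Pet1) is best known from serotonin neurons. Pax4, Pax6, Isl1, Hhex and Mnx1 are known above all from the endocrine pancreas, where they take part in the choice between islet cell types. St18 is a zinc finger factor of the Myt1 family, and Etv1 is an ETS factor known in several neurons and in pacemaker cells of the gut wall.

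Values are FPKM, a level per kilobase of transcript, so levels of different genes can be set side by side. Column totals ran from 731415 to 901567 in the EC libraries and from 1045160 to 1415120 in the epi libraries, so they differed with cell type. Per library, 11318 to 13071 genes had at least 1 FPKM. The depth of the libraries is unknown. One library stood apart: villus epi replicate 2 correlated across genes with the rest of its group at a mean of 0.812, against 0.923 to 0.926 in the other villus epi libraries and 0.971 to 0.985 elsewhere. It also held 24.6 FPKM of Ptprc, the leukocyte gene for CD45, against 1.06 to 1.69 in the other villus epi libraries. In bulk RNA, fewer cells of a type and less RNA per cell cannot be told apart. The sort was visible in a list of 9 EC genes (Tph1, Chga, Reg4 and 6 others), whose summed level was 84616 to 124574 FPKM in villus EC against 622 to 751 in villus epi, and 87609 to 110068 in crypt EC against 1436 to 1977 in crypt epi. In the limma test described below, 9 of the 9 were higher in crypt EC than in crypt epi. In the villus 8 were higher in EC cells and 1, Slc18a2, was not called. Slc18a2 was at 4.65 to 9.80 FPKM in villus EC against 1.67 to 21.1 in villus epi. Ddc was higher in villus EC by little, at 328 to 417 FPKM against 223 to 275.

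Of the 9 factors, 8 reached 1 FPKM in at least 4 of the 16 libraries and were tested with limma, and Hhex did not. A gene was called at a Benjamini-Hochberg adjusted p below 0.05 over the 14089 genes tested. In the villus, 6 of the 8 were higher in EC than in epi cells (Lmx1a, Fev, Pax4, Pax6, St18 and Etv1) and 0 lower. The background was broad, since 62.2% of tested genes were called in that comparison, 40.6% higher and 21.6% lower as shares of all tested (5724 and 3046 genes, or 7871 and 1920 with columns scaled to the same total). In the crypt, 6 of the 8 were higher in EC cells (Mnx1 in place of Etv1) and 1, Isl1, was lower, where 43.2% of tested genes were called, 23.2% higher and 20.0% lower (3264 and 2824 genes, or 5994 and 1436 with columns scaled to the same total and 2737 and 3390 with median-ratio scaling). Mnx1 passed the filter through crypt EC, where 4 of 4 libraries reached 1 FPKM, so each of its differences that involves crypt EC was partly built in. Fev passed it through the EC groups, where 4 of 4 libraries of each reached 1 FPKM against 1 of 4 in each epi group. Its EC over epi differences were therefore partly built in too. By library values alone, 6 of the 9 were higher without overlap in villus EC than in villus epi (the low Mnx1 included and Etv1 not) and 0 lower, while 35.1% of tested genes were higher and 17.8% lower in this way, 52.8% in all. In crypt EC against crypt epi 6 were higher and 1 lower (Hhex), while 31.3% of tested genes were higher and 28.3% lower, 59.6% in all.

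**Figure D1:**
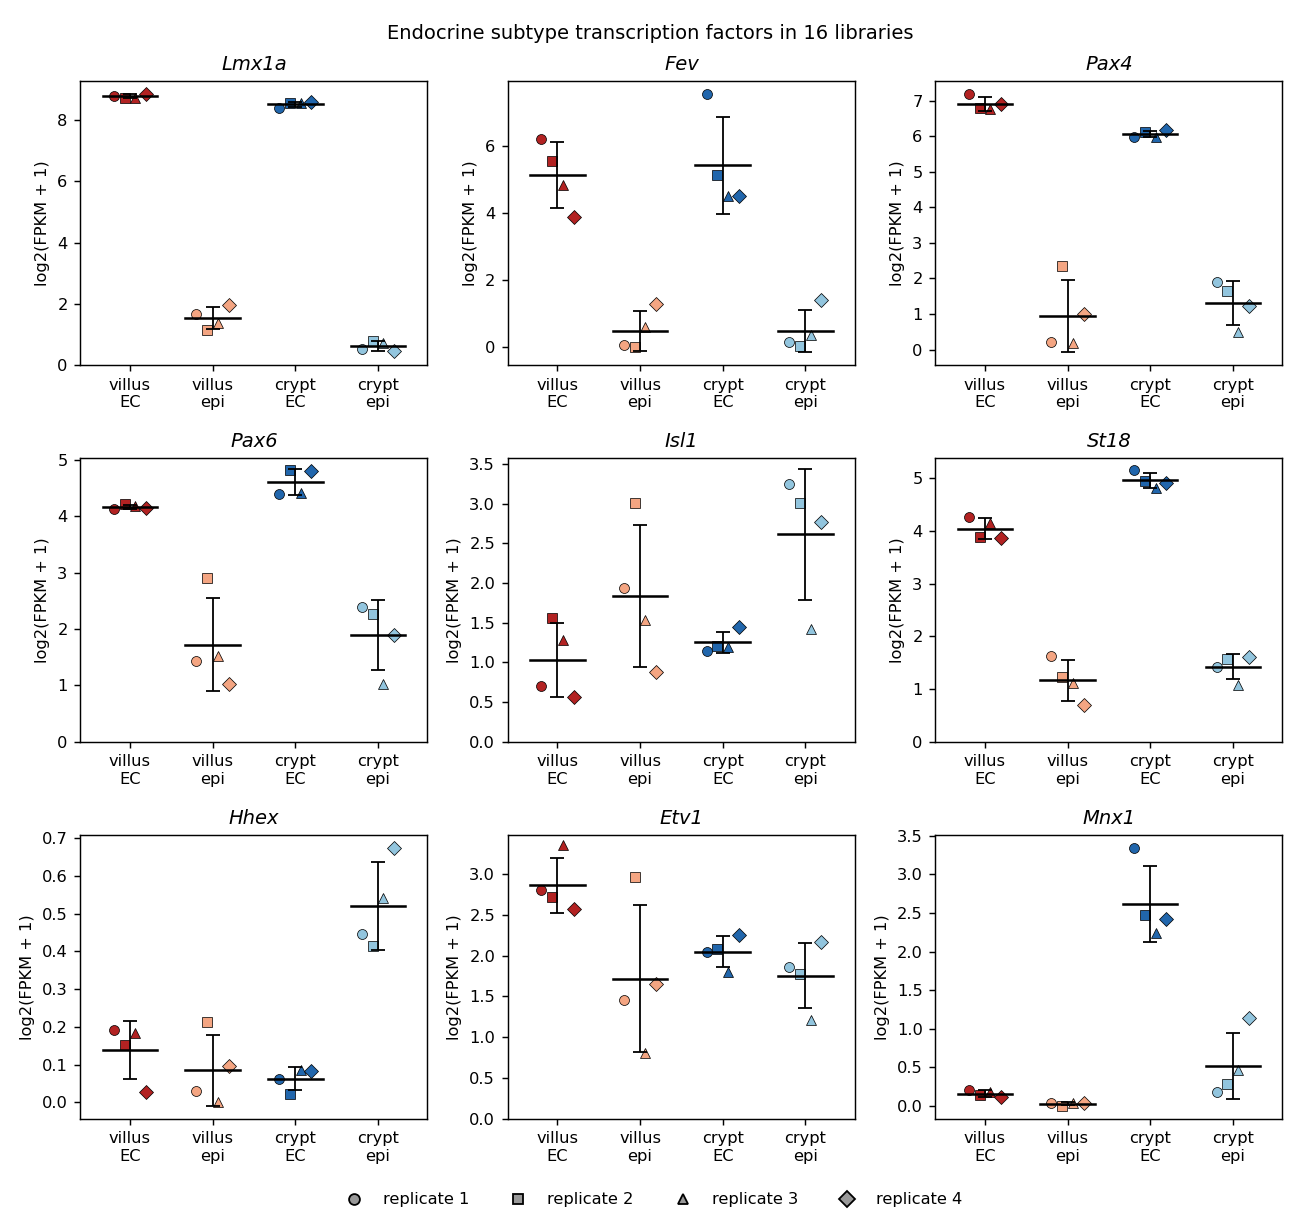
Level of each of the 9 factors as log2(FPKM + 1) in the 16 libraries, 1 point per library with the replicate number as its shape; horizontal bars are group means and error bars the SD (n = 4). The vertical scale differs between genes: the Lmx1a points of both EC groups lie far above those of both epi groups, while Hhex stays below 1 throughout.

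Lmx1a was the most abundant of the 9 in EC cells. It stood at 442, 421, 421 and 463 FPKM in villus EC against 2.16, 1.21, 1.59 and 2.88 in villus epi, and at 337, 372, 373 and 384 in crypt EC against 0.424, 0.729, 0.647 and 0.385 in crypt epi. No EC library overlapped any epi library at either site. The group means of 437 ± 19.8 FPKM in villus EC and 367 ± 20.5 in crypt EC (SD, n = 4 each) lay above 98.4% and 98.2% of tested genes. The log2 fold change of EC over epi was 7.24 ± 0.15 (SE) in the villus (adjusted p = 5.09e-14) and 7.90 ± 0.15 in the crypt (adjusted p = 8.38e-15).

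Between sites, Lmx1a differed in the epi libraries. Villus epi was above crypt epi by 0.91 ± 0.15 log2 units (SE, adjusted p = 0.000108, higher in all 4 libraries without overlap), a comparison in which 19.6% of tested genes were called higher and 35.4% lower, 55.0% in all (2761 and 4994 genes, or 1978 and 5967 with columns scaled to the same total). At these low levels the value depends on the pseudocount, and it was 0.32 with 5 and 1.64 with 0.1. Of the 9 EC genes, 7 were called higher in villus epi than in crypt epi, 1 was called lower (Reg4) and 1 was not called (Slc18a2). Tph1 was at 44.9, 87.2, 22.8 and 46.4 FPKM in villus epi against 1.95, 1.84, 0.733 and 1.76 in crypt epi, and Chga at 45.8 to 97.9 against 8.71 to 13.9. Reg4 was at 81.0 to 127 FPKM in villus epi against 1292 to 1808 in crypt epi, so that the summed level of the 9 was lower in villus epi. The part of EC cells in the Lmx1a level of villus epi was not tested. In EC cells the villus libraries were above the crypt libraries without overlap, and the log2 fold change was 0.25 ± 0.15 (SE) and not called (adjusted p = 0.27).

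The promoters of Lmx1a and Mnx1 are shown because both hold, in the 250 bases before the RefSeq start site, the 7 letters TCAAGTG of the NK2 homeodomain motif, the motif type that Nkx2-2 binds. The windows are chr1:167689308-167689557 on the plus strand for Lmx1a and chr5:29478471-29478720 on the minus strand for Mnx1 (GRCm38, mm10), and capitals mark the motif.
Lmx1a: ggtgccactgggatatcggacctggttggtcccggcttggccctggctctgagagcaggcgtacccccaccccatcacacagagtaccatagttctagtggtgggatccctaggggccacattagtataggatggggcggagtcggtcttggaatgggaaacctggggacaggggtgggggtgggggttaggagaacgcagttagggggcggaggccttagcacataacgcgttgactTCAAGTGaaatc
Mnx1: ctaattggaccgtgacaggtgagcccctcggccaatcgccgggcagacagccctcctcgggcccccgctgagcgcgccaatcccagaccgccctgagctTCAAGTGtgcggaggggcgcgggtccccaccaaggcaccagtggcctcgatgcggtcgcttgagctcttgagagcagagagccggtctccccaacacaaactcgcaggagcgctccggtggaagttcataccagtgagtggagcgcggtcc
The motif begins 12 bases before the RefSeq start of Lmx1a and 151 bases before that of Mnx1. In GENCODE the Lmx1a gene begins earlier, at chr1:167689237. Its window therefore lies inside the GENCODE gene, with 1 base in an exon. Searched on both strands (TCAAGTG or CACTTGA), it occurred in 2.68% of 32851 promoter windows of this length, and in 2 of the 9 windows of the 7 factors that have one (RefSeq lists Lmx1a, Fev, Pax6, Isl1, Hhex, Etv1 and Mnx1). Of 3 further motifs searched in the same way, CAGATG was in 1 member window (Etv1) and 14.4% of all windows, TAATTA in 1 (Fev) and 4.84%, and CCGGAA in 0 and 12.03%. The motifs were chosen with these sequences known, and a match is not a bound site. Nkx2-2 itself was at 36.3 to 46.2 FPKM in villus EC against 0.185 to 0.548 in villus epi, and at 105 to 119 in crypt EC against 0.816 to 2.30 in crypt epi.

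Pax4, a paired homeodomain factor that mice need for serotonin and somatostatin cells of the gut, was the factor with the next highest level in villus EC. It had 144, 109, 107 and 118 FPKM in villus EC against 0.171, 4.10, 0.136 and 1.02 in villus epi, and 62.5, 67.7, 61.8 and 70.5 in crypt EC against 2.74, 2.14, 0.406 and 1.32 in crypt epi. EC and epi libraries did not overlap, and each villus EC library lay above each crypt EC library. The log2 fold change of EC over epi was 5.96 ± 0.40 (SE) in the villus (adjusted p = 3.33e-09) and 4.74 ± 0.40 in the crypt (adjusted p = 1.15e-07).

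Neurog3, the progenitor factor that precedes Pax4 in endocrine development, followed the opposite order between the EC groups. It was at 0 to 0.0592 FPKM in villus EC and at 6.04 to 11.8 in crypt EC (log2 fold change -3.15 ± 0.23 (SE), adjusted p = 9.1e-08). The order of Neurog3 was not particular to EC cells, since it was at 0 to 0.269 FPKM in villus epi and at 2.81 to 6.98 in crypt epi. Crypt EC against crypt epi was not called for Neurog3 (limma, adjusted p = 0.0758). The difference of Pax4 between villus EC and crypt EC was 0.85 ± 0.40 log2 units (SE) and was not called (adjusted p = 0.141). It was called in 4 of 27 alternatives. These included the fit without villus epi replicate 2, a library that bears on this comparison through the pooled variance alone (adjusted p = 0.012). They also included a fit of the 2 EC groups alone (adjusted p = 0.000102).

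Fev, the ETS factor of serotonin neurons, was high in EC cells, through which it was kept for testing, but varied widely between EC libraries of 1 group. It was at 73.0, 46.0, 28.0 and 14.0 FPKM in villus EC against 0.0385, 0, 0.533 and 1.44 in villus epi. In the crypt it was at 188, 34.2, 21.8 and 22.0 in crypt EC against 0.108, 0.0283, 0.282 and 1.67 in crypt epi. EC and epi libraries did not overlap at either site, while the 2 EC groups overlapped widely. The log2 fold change of EC over epi was 4.64 ± 0.63 (SE) in the villus (adjusted p = 1.09e-05) and 4.94 ± 0.63 in the crypt (adjusted p = 1.22e-05), and 4.23 in the crypt without crypt EC replicate 1. Villus EC and crypt EC were not separated (log2 fold change -0.30 ± 0.63 (SE), adjusted p = 0.813, and 0.41 without crypt EC replicate 1).

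The spread of Fev was not shared by its neighbour Cryba2, a crystallin gene 4514 bases away on chromosome 1, picked after its values were seen. Cryba2 was at 110 to 126 FPKM in villus EC against 1.24 to 1.98 in villus epi, and at 70.5 to 77.5 in crypt EC against 1.03 to 4.32 in crypt epi. Crypt EC replicate 1, which held the most Fev, differed from the other crypt EC libraries in further genes: Sct, the secretin gene, was at 1280 FPKM there against 7219 to 9171, Tph1 at 3678 against 5573 to 6163, Gcg, the proglucagon gene, at 35.2 against 0 to 0.260, and Tac1, the substance P gene, at 6331 against 4335 to 4557. Their part in the Fev value was not tested.

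St18 was higher in EC cells at both sites and, among the EC groups, higher in the crypt. It was at 18.2, 13.8, 16.8 and 13.7 FPKM in villus EC against 2.10, 1.36, 1.16 and 0.619 in villus epi, and at 34.9, 30.1, 27.1 and 29.3 in crypt EC against 1.68, 1.99, 1.125 and 2.06 in crypt epi. No library of 1 EC group overlapped any library of the other EC group or of the epi groups. The log2 fold change of EC over epi was 2.88 ± 0.20 (SE) in the villus (adjusted p = 4.56e-09) and 3.54 ± 0.20 in the crypt (adjusted p = 1.11e-09). Villus EC fell below crypt EC by 0.92 log2 units (log2 fold change -0.92 ± 0.20 (SE), adjusted p = 0.00241).

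Pax6, which in mice is needed for proglucagon expression and islet hormones, was also higher in EC cells at both sites. It was at 16.6, 17.6, 17.0 and 16.6 FPKM in villus EC against 1.68, 6.53, 1.88 and 1.04 in villus epi, and at 20.1, 27.1, 20.4 and 26.8 in crypt EC against 4.26, 3.80, 1.03 and 2.72 in crypt epi. EC libraries were above epi libraries at both sites, and each crypt EC library was above each villus EC library. The log2 fold change of EC over epi was 2.44 ± 0.35 (SE) in the villus (adjusted p = 1.94e-05) and 2.71 ± 0.35 in the crypt (adjusted p = 1.4e-05). Between villus EC and crypt EC it was -0.44 ± 0.35 (SE) and not called (adjusted p = 0.431, and 0.0106 in a fit of the EC groups alone). The antisense gene Pax6os1 lies across the Pax6 locus but shares 0 exonic bases with Pax6.

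Mnx1, a homeobox factor of motor neurons and pancreatic beta cells, was present mainly in crypt EC. It was at 0.155, 0.103, 0.129 and 0.0810 FPKM in villus EC against 0.0240, 0, 0.0280 and 0.0288 in villus epi, and at 9.17, 4.54, 3.74 and 4.38 in crypt EC against 0.134, 0.219, 0.376 and 1.21 in crypt epi. The lowest crypt EC library was above every library of the other 3 groups. Crypt EC was above crypt epi by 2.10 ± 0.23 log2 units (SE, adjusted p = 2.17e-06), and villus EC fell below crypt EC with a log2 fold change of -2.46 ± 0.23 (SE, adjusted p = 1.2e-06). These low values depend on the pseudocount of 1, and with 0.1 the log2 fold changes were 3.49 and -4.60. In the villus, EC and epi cells did not pass the test (0.13 ± 0.23 (SE), adjusted p = 0.642).

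Etv1 was the only one of the 8 tested factors called in villus EC against villus epi and not in crypt EC against crypt epi, and the difference between these effects did not pass its own test (interaction 0.85 ± 0.50 (SE), adjusted p = 0.188). It was at 5.95, 5.60, 9.21 and 4.94 FPKM in villus EC against 1.74, 6.77, 0.751 and 2.14 in villus epi, and at 3.11, 3.24, 2.48 and 3.78 in crypt EC against 2.63, 2.42, 1.32 and 3.49 in crypt epi. Villus EC lay above crypt EC without overlap, and villus epi replicate 2 fell within the villus EC range. The log2 fold change of EC over epi was 1.14 ± 0.35 (SE) in the villus (adjusted p = 0.0108) and 0.29 ± 0.35 in the crypt (adjusted p = 0.549). The villus call was lost in a fit of these 2 groups alone (adjusted p = 0.0576). Without villus epi replicate 2 the log2 fold change was 1.56 (adjusted p = 3.73e-05) and the interaction was called at 1.27 (adjusted p = 0.00451).

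**Figure D2:**
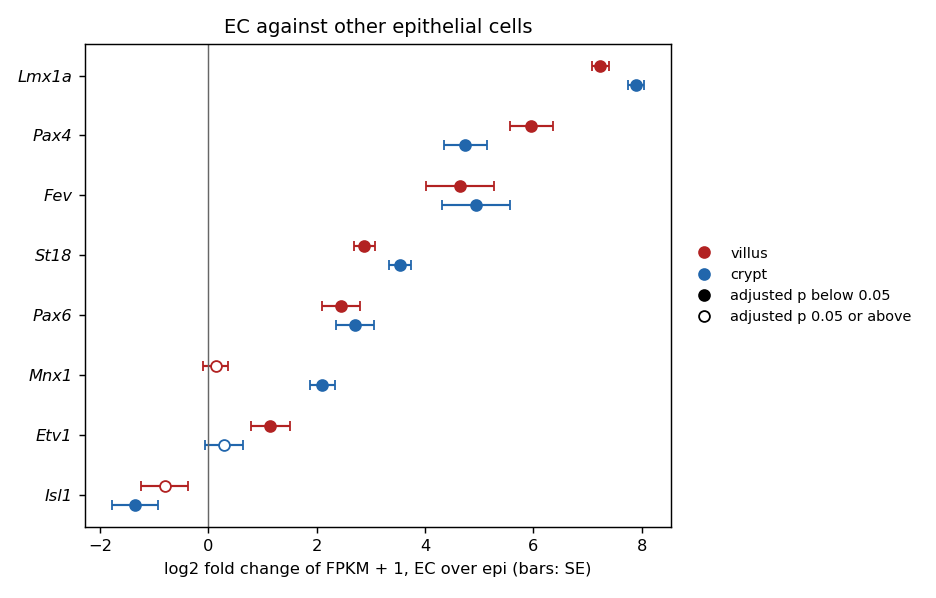
Log2 fold change of FPKM + 1 in EC over other epithelial cells for the 8 tested factors, in the villus and in the crypt; points are limma estimates, bars the SE, and filled points have an adjusted p below 0.05. Lmx1a has the largest fold change at both sites (7.24 in the villus, 7.90 in the crypt) and Isl1 lies below 0 at both.

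Isl1 was lower in EC cells of the crypt, the one factor called in that direction. Isl1, a LIM homeodomain factor that mice need for several gut hormone cell types, was at 0.635, 1.94, 1.44 and 0.480 FPKM in villus EC against 2.83, 7.04, 1.89 and 0.835 in villus epi, and at 1.21, 1.32, 1.30 and 1.74 in crypt EC against 8.50, 7.06, 1.67 and 5.85 in crypt epi. The groups overlapped at both sites, in the crypt through crypt epi replicate 3 alone. The crypt difference was called (log2 fold change -1.36 ± 0.43 (SE), adjusted p = 0.0178), and the villus difference was not (-0.81 ± 0.43 (SE), adjusted p = 0.116). The villus difference was called without villus epi replicate 4 (-1.13, adjusted p = 0.0319) and was -0.42 without replicate 2 (adjusted p = 0.326). The crypt call ended without crypt epi replicate 1 (adjusted p = 0.0614) or replicate 2 (adjusted p = 0.0534), and with columns scaled to the same total (log2 fold change -0.999, adjusted p = 0.0592).

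Hhex, the homeobox factor of somatostatin-producing delta cells in the mouse pancreas, stayed below 1 FPKM in all 16 libraries and was left out of the test. It ranged from 0.0190 to 0.142 FPKM in villus EC against 0 to 0.159 in villus epi, and from 0.0151 to 0.0612 in crypt EC against 0.334 to 0.597 in crypt epi. The crypt epi libraries were above every other library. With no filter, over all 20072 genes, the log2 fold change of EC over epi was 0.05 in the villus (adjusted p = 0.564) and -0.46 in the crypt (adjusted p = 0.000114), at levels where 1 FPKM is never reached. Sst, the somatostatin gene, was likewise at 0 to 5.33 FPKM in crypt EC against 124 to 267 in crypt epi. In villus EC against villus epi, Sst was at 0 to 58.8 against 0 to 85.1, and 1 library held nearly all of it in each group.

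In crypt epi, replicate 3 was the lowest library for Pax4, Pax6, Isl1, St18 and Etv1. Its summed level of 9 hormone genes (Gip, Gcg, Sst, Cck, Ghrl, Nts, Gast, Pyy and Sct) was 1002 FPKM, against 3394, 3082 and 3159 in crypt epi replicates 1, 2 and 4. The low level was not particular to endocrine genes. Enterocyte markers summed to 1690 FPKM there against 4935 to 5295, and tuft cell markers to 18.1 against 30.1 to 37.8. Goblet and Paneth cell markers were also lowest there, by less, while stem cell markers were highest (1685 against 1486 to 1580). The part of these differences in its factor levels was not tested. In villus epi, replicate 2 was the highest for Pax4, Pax6, Isl1, Hhex and Etv1, and its hormone sum was 1542, against 3540, 2182 and 1507 in replicates 1, 3 and 4. The 5 T and intraepithelial lymphocyte markers summed to 28.1 FPKM in that library against 2.24 to 6.27 in the others of its group, of which Ptprc made up 24.6. The T cell gene Cd3e was at 0.663 there against 0.412 to 0.751, Cd3g at 0.834 against 0.284 to 0.745 and Cd8a at 1.75 against 0.171 to 0.439, while Gzma was at 0.270 against 0 to 2.98. The 7 markers of stroma, endothelium and interstitial cells summed to 34.5 against 5.04 to 10.5, of which Pecam1, an endothelial gene that the EC libraries also held at 13.3 to 32.99 FPKM, made up 23.1. Epithelial genes also differed in villus epi replicate 2. The goblet cell markers summed to 12416 FPKM there against 25433 to 36025. Of the enterocyte markers, Alpi (7739 against 3599 to 3783) and Fabp1 (63757 against 25891 to 34327) were higher. Apoa4 (3364 against 12536.5 to 14270.5), Lct (110 against 619 to 757), Sis (146 against 511 to 724) and Vil1 (344 against 814 to 878) were lower. The part of any of these differences in its factor levels was not tested.

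**Figure D3:**
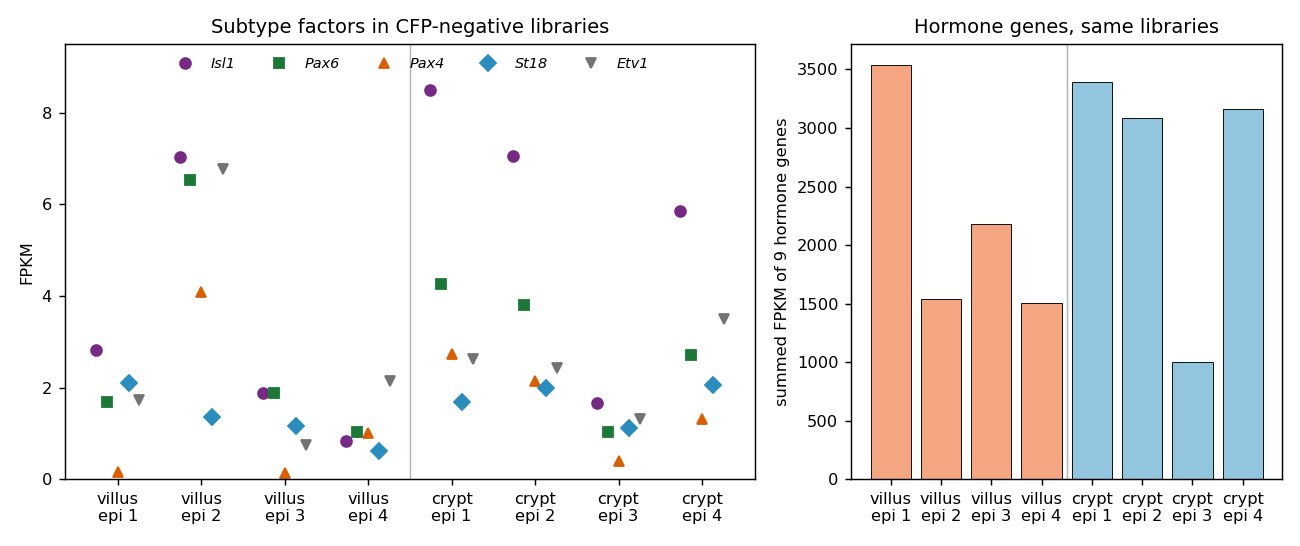
Left, FPKM of Isl1, Pax6, Pax4, St18 and Etv1 in each of the 8 CFP-negative libraries; right, summed FPKM of 9 hormone genes in the same libraries (bars from 0). Crypt epi replicate 3 is low in both panels, with a hormone sum of 1002, while villus epi replicate 2 is high in the left panel for all but St18 and has a hormone sum of 1542.

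Between villus EC and crypt EC, St18 was lower in villus EC, and so was Mnx1, which was kept for testing because it is high in crypt EC. With limma these 2 of the 8 tested were lower and 0 higher, where 26.5% of tested genes were called, 10.3% higher and 16.2% lower. Of all genes, 1454 were called higher and 2282 lower, and 1134 and 3461 with columns scaled to the same total. By library values alone, 3 of the 9 were higher in villus EC than in crypt EC without overlap (Lmx1a, Pax4 and Etv1) and 3 lower (Pax6, St18 and Mnx1), while 19.0% of tested genes were higher and 26.2% lower without overlap, 45.2% in all. A fit of only the EC groups called these same 6. That fit called more genes of every kind, 6670 of the 14089 tested, 2779 higher and 3891 lower. From the highest group mean to the lowest, the order was Lmx1a, Pax4, Fev, Pax6, St18, Etv1, Isl1, Mnx1 and Hhex in villus EC. In crypt EC it was Lmx1a, Fev, Pax4, St18, Pax6, Mnx1, Etv1, Isl1 and Hhex. Neighbours in these orders had overlapping libraries for Fev and Pax6, Pax6 and St18, and Mnx1 and Hhex in villus EC, and for Fev and Pax4, St18 and Pax6, and Mnx1 and Etv1 in crypt EC. The place of Fev in crypt EC rests on replicate 1 at 188 FPKM, since the other 3 libraries, at 21.8 to 34.2, were below every Pax4 library and overlapped St18 and Pax6.

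**Figure D4:**
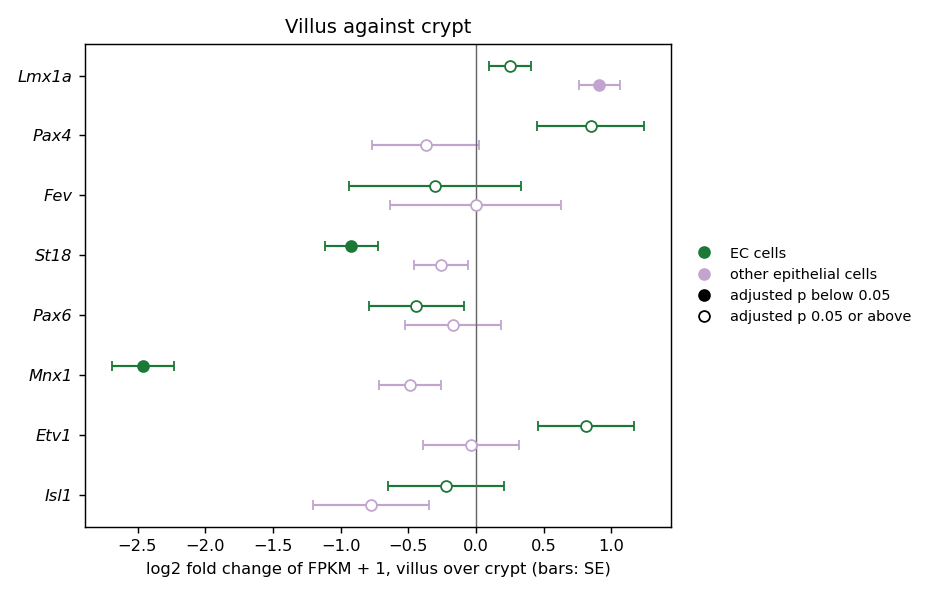
Log2 fold change of FPKM + 1 in villus over crypt for the 8 tested factors, in EC cells and in other epithelial cells; points are limma estimates, bars the SE, and filled points have an adjusted p below 0.05. Mnx1 (-2.46) and St18 (-0.92) are filled in EC cells, and Lmx1a (0.91) is filled in the other epithelial cells.

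In the other epithelial cells, 1 of the 8 tested (Lmx1a) was higher in villus epi than in crypt epi and 0 lower, where 55.0% of tested genes were called, 19.6% higher and 35.4% lower. By library values alone, 1 of the 9 was higher without overlap (Lmx1a) and 2 lower (Hhex and Mnx1), while 16.6% of tested genes were higher and 31.7% lower in this way, 48.3% in all. The interaction of cell type and site, the EC over epi difference in the villus minus that in the crypt, was called for 2 of the 8, both lower, where 42.9% of tested genes were called, 26.9% higher and 16.0% lower. For Mnx1, again a factor kept through its crypt EC level, it was -1.97 ± 0.32 (SE, adjusted p = 0.000164). For Lmx1a it was -0.66 ± 0.22 (SE, adjusted p = 0.0226), and with a pseudocount of 5 it was -0.07 and no longer called (adjusted p = 0.674).

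The 8 tested factors were set beside 15 progenitor and pan-endocrine factors that passed the filter. Nkx2-2, Myt1, Insm1 and Neurod2 passed it through the EC groups, where 4 of 4 libraries of each reached 1 FPKM. Of 4 crypt epi libraries 3, 1, 0 and 0 reached it, and of 4 villus epi libraries 0, 1, 0 and 0. Their EC over epi differences were therefore partly built in, and so were the counts and medians that hold them. The 8 had a median log2 fold change of EC over epi of 2.66 in the villus and 3.13 in the crypt. In the villus 11 of the 15 were higher in EC cells and 0 lower, where 40.6% of tested genes were called higher and 21.6% lower. Their median log2 fold change was 3.29 against 0.33 over all genes tested. In the crypt 10 of the 15 were higher and 2 lower, where 23.2% of tested genes were called higher and 20.0% lower. Their median was 2.01 against 0.05. Neurod1 had the largest rise at both sites, 6.86 in the villus and 5.96 in the crypt, and Nkx2-2, Rfx6 and Myt1 rose by 4.93, 4.59 and 5.36 in the villus and by 5.55, 4.95 and 4.83 in the crypt. Atoh1, the factor that sets secretory fate, and Gfi1 were the 2 that fell in crypt EC (-4.40 and -1.55). Gfi1 passed the filter through crypt epi, where 4 of 4 libraries reached 1 FPKM against 0 of 4 in each other group. Its fall was therefore partly built in. Between villus EC and crypt EC, 5 were higher and 6 lower, with a median of -0.07 against -0.05 over all genes tested, of which 26.5% were called, 10.3% higher and 16.2% lower. Neurod1 (1.56), Sox4 (1.56) and Atoh1 (1.88) were among the higher, and Neurog3 (-3.15) had the largest fall.

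The genes with the profile most like each factor were found by the root mean square difference of log2(FPKM + 1) values, centred on each gene's mean, over the 16 libraries. For Lmx1a they were Amigo2 (0.43) and Trpa1 (0.46), for Pax4 Myt1 (0.43) and Elapor2 (0.52), and for St18 Ttll7 (0.23) and Plppr2 (0.23). Pax6 was nearest to Il6ra (0.34) and Rims2 (0.39), Mnx1 to Relt (0.29) and Itprip (0.33), Etv1 to Pde3b (0.29) and Cadm4 (0.30), and Isl1 to Sh2d7 (0.42) and Trim65 (0.43). Fev had no close match, since its nearest genes were Pak3 (0.81) and Rasal2 (0.81). None of these nearest genes was itself one of the 9.

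On mm10 the factors lie at chr1:167689237-167848741 (Lmx1a), chr1:74881509-74885419 (Fev), chr6:28442334-28449353 (Pax4), chr2:105668900-105697364 (Pax6), chr13:116298281-116309689 (Isl1), chr1:6487231-6860940 (St18), chr19:37434810-37440731 (Hhex), chr12:38779380-38870484 (Etv1) and chr5:29473034-29478470 (Mnx1), each annotated as protein coding.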

How the data were processed

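RNA of sorted cells was amplified as full-length cDNA (SMART-Seq HT) and prepared with Nextera XT, per the labels' protocols. The authors deposited gene-level FPKM values; their scaling is not given in the sources used here. The submitters' processing notes name bcl2fastq 2.20, kallisto, sleuth and mm10.

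Values were used as deposited, as log2(FPKM + 1). Genes with at least 1 FPKM in at least 4 of 16 libraries were tested (14089 of 20072). limma 3.58.1 (R 4.3.3; lmFit, contrasts.fit, eBayes with trend) fitted 4 group means in 1 model, two-sided, with Benjamini-Hochberg adjustment per contrast. Fold changes are on this scale and understate those of low genes. The method was tested on simulated data. Positions are from GENCODE M21 and promoters from RefSeq (GRCm38.p6). Figures used matplotlib 3.10.9 in Python 3.11.15.

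The rule for named genes took the 9 factors, up to 4 called genes of each comparison list and contrast, and the 2 nearest profiles of each tested factor; some genes beside a result were picked after their values were seen. The members and lists were chosen with earlier results of these data known. The labels give 4 mice or samples per group and tie no library to a single mouse, so p-values measure the spread between these samples, which may be technical. The depth is unknown, since FPKM keep no counts. Alternatives covered the pseudocount, the filter, column scaling, the groups fitted, the variance trend, library weights, blocks and each library left out.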

Additional observations from a re-analysis of the deposited data

Results flagged for a closer look

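In 36 combinations of a factor and a group, 5 had 1 library far from the other 3 by Dixon's test of the gap over the range. For normal values chance flags about 1 in 20. The test was run on FPKM, and the combinations share libraries, so that rate is no measure for the 5. Fev was at 188 FPKM in crypt EC replicate 1 against 21.8 to 34.2 in the others, and at 1.67 in crypt epi replicate 4 against 0.0283 to 0.282. Mnx1 was at 9.17 in crypt EC replicate 1 against 3.74 to 4.54, so the library apart for Fev was also apart for Mnx1. Mnx1 was at 0.0 in villus epi replicate 2 against 0.0240 to 0.0288, a range of very low values. Pax6 was at 6.53 in villus epi replicate 2 against 1.04 to 1.88.

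For 2 factors the EC over epi difference was not the same in villus and crypt by the interaction test. It was -0.66 log2 units for Lmx1a (adjusted p = 0.0226) and -1.97 for Mnx1 (adjusted p = 0.000164), with limma. The Mnx1 value kept its call under all 25 alternatives in which it was tested, at -0.88 to -2.64, and the gene was kept for testing through its crypt EC level. The Lmx1a value lost its call with a pseudocount of 5.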

How the results depend on the processing

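Of 1067 repeats of 40 factor results, 1012 kept direction and call, 30 became called, 5 lost the call and 20 changed sign, 0 of them called at first. Scaling moved the median of all tested genes from 0.33 to 0.81 (same total) or 0.11 (median ratios) in villus EC over villus epi, and from 0.05 to 0.50 or -0.08 in crypt EC over crypt epi. Called genes rose in crypt EC against crypt epi to 9928 with library weights and 9204 with only the groups compared, against 6088, and in villus EC against crypt EC to 7255 and 6670, against 3736. Called factors in villus EC against crypt EC, 2 at first, were 4 with a pseudocount of 5 or library weights, 1 with the stricter filter, which drops Mnx1, and 6 with only the groups compared. In villus epi against crypt epi, 1 became 2 with a pseudocount of 0.1 and 5 with library weights, and in the interaction 2 became 1 with the stricter filter and 5 with library weights. Library weights called 9632 genes in villus epi against crypt epi, against 7755, and 8995 in the interaction, against 6050. The causes were not tested. Pseudocounts of 5 and 0.1 moved Mnx1 in crypt EC over crypt epi to 0.91 and 3.49.

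Leaving out 1 library gave 8238 to 10518 called genes in villus EC against villus epi, 5357 to 9020 in crypt EC against crypt epi, 2988 to 6565 in villus EC against crypt EC, 7113 to 9458 in villus epi against crypt epi and 5546 to 8639 in the interaction. Called factors were 6 to 7, 6 to 7, 2 to 4, 1 to 3 and 2 to 4 in that order. Without villus epi replicate 2, 4, 3 and 4 factors were called in the last 3.

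Signs changed, with log2 values given here, for Fev in villus EC against crypt EC (0.30 with library weights, -0.66 to 0.41 without 1 library), in villus epi against crypt epi (0.0652 with median ratios, 0.42 with library weights, 0.0024 with library number as a random block, -0.27 to 0.31 without 1 library) and in the interaction (-0.66 to 0.41 without 1 library). They changed for Etv1 in villus epi against crypt epi (0.0249 with a pseudocount of 5, 0.0766 with median ratios, -0.45 to 0.27 without 1 library), and for Pax6 in villus epi against crypt epi (-0.57 to 0.0613 without 1 library) and in the interaction (0.28 with library weights, -0.50 to 0.13 without 1 library).

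Deviations from the group means were correlated between libraries of different groups. The 24 pairs with the same replicate number had correlations of -0.268 to 0.170, and 4 exceeded 0.1. The 10 pairs with the same library number in the column names had -0.268 to 0.139, and 1 exceeded 0.1. A pair with different numbers, crypt EC replicate 1 and crypt epi replicate 3, had 0.315. These correlations cannot show whether libraries share a mouse, which the labels do not give. With the replicate block, 6, 7, 2, 1 and 2 factors and 8599, 5861, 3475, 7589 and 5835 genes were called in villus EC against villus epi, crypt EC against crypt epi, villus EC against crypt EC, villus epi against crypt epi and the interaction. Leaving out libraries of groups outside a contrast was added after seeing the data.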
